A study of Mus musculus with 12 samples.

Results

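The axoneme is the microtubule core of a motile cilium or flagellum, and its parts are named by gene families. The genes described here are those of the table whose names begin with *Dnah* (axonemal dynein heavy chains), *Dnaic* (dynein intermediate chains), *Rsph* (radial spoke proteins), *Tekt* (tektins) or *Cfap* (cilia and flagella associated proteins), each followed by a number where the family uses one. The names gave 64 genes out of 37432, namely 33 *Cfap*, 16 *Dnah*, 8 *Rsph*, 5 *Tekt* and 2 *Dnaic* genes. They were chosen by name alone, with no use of their levels. They lie on 18 chromosomes, and the GENCODE annotation of mm10 lists 59 of them as protein coding. *Dnah2os* is an antisense transcript that overlaps *Dnah2* and is a member by its name only. Of the 64 genes, 34 share bases with another gene of the table, mostly on the opposite strand, among them *Cfap298*, *Dnaic1*, *Rsph1*, *Rsph3b* and *Tekt2*, and the strand of counting is not given in the sources used here.

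RNA-seq libraries were made at P14 from the cochlea, cut into its apical, middle and basal turns, from wild-type males (wt) and from males homozygous for 35delG in *Gjb2* (ho, labelled KO), with 2 libraries for each genotype and turn and 12 in all. *Gjb2* encodes the gap junction protein connexin 26, and 35delG is a deletion of a single base. The homozygous males came from male embryonic stem cells placed in tetraploid embryos, were born by cesarean and raised by ICR foster females, and had a background that was almost C57BL/6J, whereas wild-type males of that age were bought. Genotype and origin therefore cannot be told apart, and the numbers of animals, cochleae and stem cell lines behind a library are not given in the sources used here, so p-values measure the spread between libraries. *Gjb2* itself stood at 247.8 and 253.6 in the wt apex, 139.7 and 268.2 in the wt middle, 434.5 and 255.6 in the wt base, 331.5 and 376.2 in the ho apex, 255.8 and 450.6 in the ho middle, and 126.4 and 58.6 in the ho base (scaled FPKM). Both genotypes overlapped in the middle turn and ho was the higher one in the apex, so that the RNA level of *Gjb2* does not check a label. A deletion of 1 base need not change that level, but qPCR in the paper found less *Gjb2* RNA in the homozygous cochlea at P14. Here both ho libraries were below both wt libraries in the base only.

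A motile cilium beats because rows of dynein arms, an outer and an inner one, pull neighbouring microtubule doublets past each other. The heavy chains are the motors, the intermediate chains anchor them, radial spokes pass signals from the central pair to the arms, and tektins and many of the Cfap proteins brace the doublets from inside. Cells with many motile cilia line the airways, the middle ear and its tube, the brain ventricles and the oviduct, where the transcription factors Foxj1 and Rfx turn on axonemal genes, whereas mature hair cells of the cochlea carry stereocilia and lose their single kinocilium, and the other cells of the organ carry primary cilia, which have no dynein arms.

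Levels below are FPKM (fragments per length of transcript and per number of mapped fragments, as deposited) divided by a factor for each library between 0.917 and 1.06, and can be compared between genes because they are per length. Where genes are counted at 1 FPKM, the values as deposited were used. In bulk tissue, fewer cells of a type and less RNA per cell cannot be told apart. The libraries differed in ways other than the labelled genotype and turn. The summed level of 16 markers of spiral ganglion neurons was 1667 and 1812 in the wt middle and 422 and 92.4 in the ho middle, but 46.6 and 900 in the wt base and 3127 and 3470 in the ho base, so the turn in which nerve markers were high differed between genotypes. The second wild-type basal library (wt base 2) stood apart from the other 11 in the genes described here, and basal results are given with and without it.

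Most of the axonemal genes were low in every library but wt base 2. In the other 11 libraries between 12 and 16 of the 64 genes reached 1 FPKM, against 45 in wt base 2. The number listed at 0 was between 9 and 20 in the other 11 libraries and 1 in wt base 2. That 1 gene was *Rsph6a*, a spoke head protein of sperm, which was at 0 in all 12 libraries. The summed level of the 64 genes was 296.6 in wt base 2, and in the other 11 libraries it was lowest at 103.8, with a median of 119.8 and a highest value of 131.3. The first wild-type basal library, wt base 1, had 121.0 and was among the other libraries rather than beside its own repeat.

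**Figure D1:**
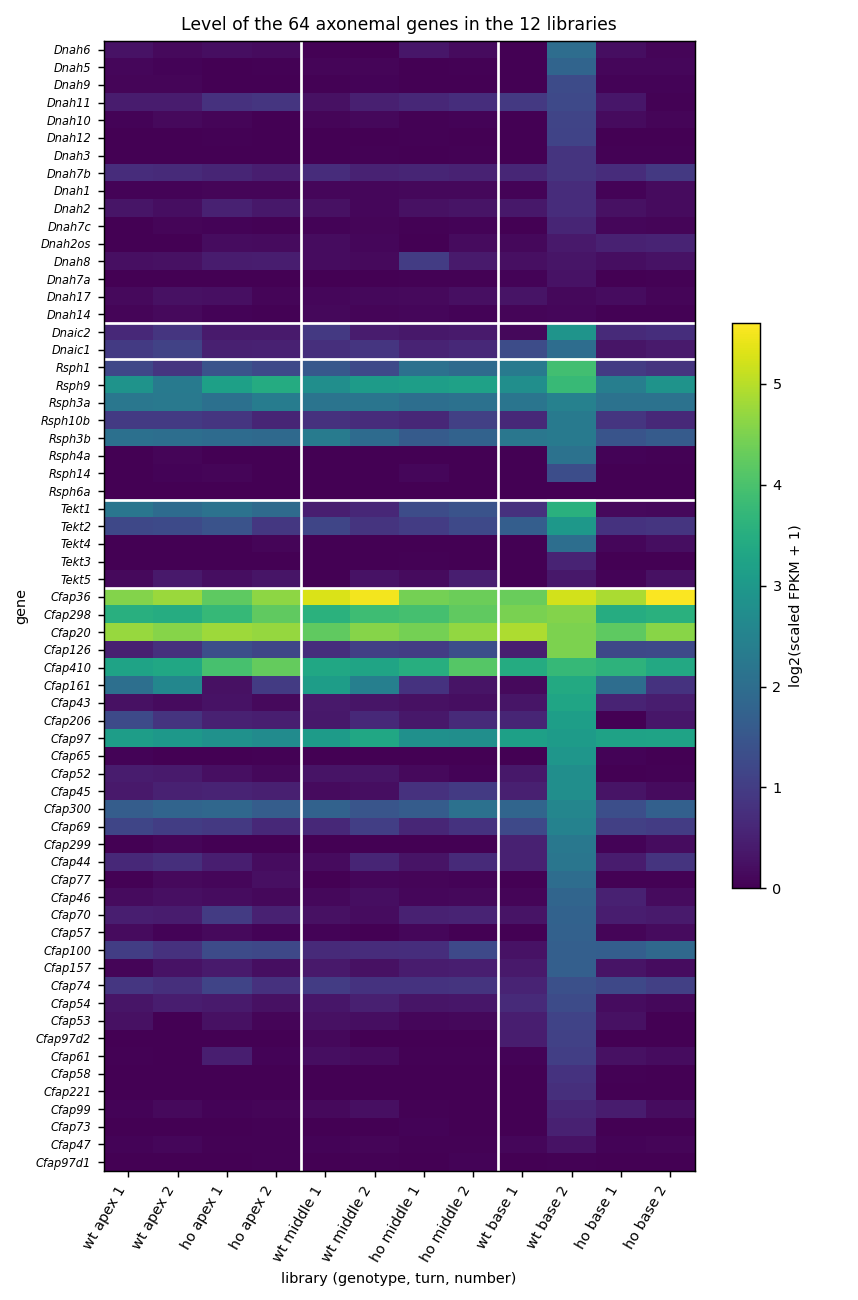
Each row is 1 of the 64 genes, grouped from top to bottom as Dnah, Dnaic, Rsph, Tekt and Cfap, and each column 1 of the 12 libraries (white lines part the turns); colour is log2(scaled FPKM + 1). The column of wt base 2 is lit in 45 genes at 1 FPKM or more, whereas the other columns share the same few bright rows of Cfap and Rsph genes.

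A group of 9 genes was at 1 FPKM or more in every library, and it was these that made up most of the sum elsewhere. They were *Cfap20*, *Cfap36*, *Cfap97*, *Cfap298*, *Cfap300*, *Cfap410*, *Rsph3a*, *Rsph3b* and *Rsph9*. Their summed level was 126.0 in wt base 2 and between 86.5 and 114.0 in the other 11 libraries, a difference small beside that of the remaining 55 genes. The remaining 55 genes summed to 170.6 in wt base 2 and to between 15.6 and 22.4 in the other 11, with a median of 18.1. Of the 64 genes, 24 reached 1 FPKM in wt base 2 alone, 13 in some other set of libraries, and 18 in none. The 24 genes summed to 74.5 in wt base 2 and to between 2.87 and 4.51 elsewhere. Since that group was defined by its level in wt base 2, its sum is a description.

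**Figure D2:**
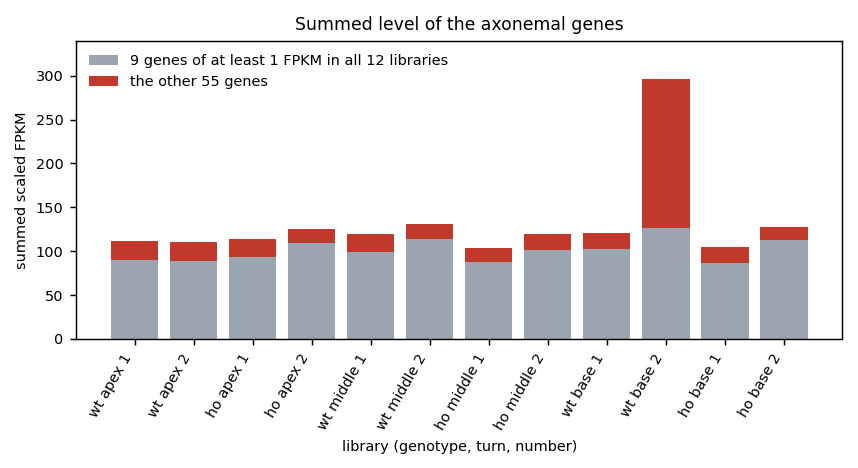
Bars give the summed scaled FPKM of the 64 genes in each library, with the 9 genes found in all 12 libraries in grey and the other 55 in red. The grey part lies between 86.5 and 126.0 in all 12 bars, and the red part is 170.6 in wt base 2 against at most 22.4 in any other.

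Shares were then set beside those of all genes. Of the 63 genes above 0 in any library, 50 (79.4%) had their highest level in wt base 2, against 10.4% of all genes above 0. Among genes that reached 1 FPKM somewhere, 39 of 46 members (84.8%) were highest there, against 8.37% of all such genes. A level of 1 FPKM in wt base 2 and in no other library was found for 24 of 46 members (52.2%), against 1.37% of all genes of that level, or 242 of 17678. A gene found in 1 library alone was not peculiar to wt base 2, since 369 genes were alone in ho middle 1, but of those only 1 was a member (*Dnah8*, 0.99 after scaling), and no other library held a member alone. Because wt base 2 is a single library, no test of it against the others was made.

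Most of the dynein heavy chains were near 0 outside wt base 2. The 16 *Dnah* genes summed to 14.9 in wt base 2 and to between 1.59 and 2.86 in the other 11 libraries, and none of the 16 passed the filter for testing (1 FPKM in at least 2 libraries). Of the outer arm motors of motile cilia, *Dnah5* (chr15:28203752-28472052, plus strand) stood at 2.47 in wt base 2 and at no more than 0.0707 elsewhere. *Dnah9* stood at 1.43 against at most 0.0524. *Dnah11*, the third of these motors, differed least, with 1.35 in wt base 2, 0.907 in wt base 1 and a median of 0.413 over the other 11, and it shares 725 bases with *Cdca7l* on the opposite strand. Of the inner arm motors, *Dnah6* had 2.98 in wt base 2 against at most 0.271, *Dnah10* 1.20 against at most 0.120 and *Dnah12* 1.19 against at most 0.0228. *Dnah5*, *Dnah6*, *Dnah9*, *Dnah10* and *Dnah12* were all listed at 0 in wt base 1. The paralogs *Dnah7a*, *Dnah7b* and *Dnah7c* are nearly identical, so that their split is uncertain, and they reached 0.212, 0.781 and 0.486 in wt base 2. *Dnah7b* was as high elsewhere, with up to 0.918. *Dnah1*, an inner arm motor, had 0.640 there against at most 0.119, while *Dnah17* was at 0.0844 in wt base 2 and at up to 0.223 elsewhere, and *Dnah8* at 0.251 against 0.990 in ho middle 1. *Dnah2* and *Dnah2os* had 0.638 and 0.298 in wt base 2, against at most 0.430 and 0.472 elsewhere, and over the 5129 bases they share the reads of these transcripts cannot be told apart without their strand.

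Both intermediate chains of the outer arm, which tie the motors to the doublet, were also highest in wt base 2. *Dnaic2* (chr11:114727412-114757889, plus strand) had 6.43 there, 0.0856 in wt base 1 and at most 0.906 in the other 11 libraries. *Dnaic1* (chr4:41569775-41638158, plus strand) had 2.98 in wt base 2 and 1.48 in wt base 1. It was 0.937 and 1.15 in the wt apex, 0.700 and 0.806 in the wt middle, 0.409 and 0.438 in the ho apex, 0.462 and 0.571 in the ho middle, and 0.251 and 0.327 in the ho base. All 6 ho libraries thus lay below all 6 wt libraries, and *Dnaic1* was the only 1 of the 21 genes tested for which this held. *Enho*, which shares 15 bases with its end on the opposite strand, was far higher and had the same order. It stood at 61.5 to 106.8 in the wt libraries and at 29.0 to 57.1 in the ho libraries. The strand of counting is not given, and the part of *Enho* reads in the *Dnaic1* values was not tested. Among all genes tested, 0.660% had all ho libraries below all wt libraries, and 0 of 21 members had them above, against 0.808% of all genes. *Dnaic1* reached 1 FPKM in 3 libraries, all of them wt, so it passed the filter only through the genotype in which it was higher. Its order was therefore partly set by the filter, and these shares are no test of it.

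The radial spoke genes split into a broad and a restricted part. *Rsph9*, a spoke head protein, had 12.6 in wt base 2 and between 3.87 and 9.89 in the other 11 libraries. *Rsph3a* and *Rsph3b*, closely related genes for a stalk protein whose split is uncertain, had 4.53 and 3.87 in wt base 2, within or near their ranges elsewhere of 3.06 to 4.14 and 1.72 to 4.0. The spoke head gene *Rsph1* (chr17:31255019-31277383, minus strand) had 14.1 in wt base 2, and its next highest value was 3.87 in wt base 1. *Rsph4a*, also of the spoke head, had 3.35 in wt base 2, was listed at 0 in wt base 1 and did not exceed 0.0511 elsewhere. *Rsph14* followed with 1.5 against at most 0.0716, and *Rsph10b* with 3.94 against at most 1.10.

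The 5 tektins, filament proteins inside the doublets, summed to 21.6 in wt base 2 and to between 0.978 and 5.19 in the other 11 libraries. *Tekt1* (chr11:72344722-72362442, minus strand) had the widest range of the 5 in the other 11 libraries, from 0.0927 to 3.59. It had 3.59 and 2.91 in the wt apex and 3.32 and 2.85 in the ho apex. It had 0.390 and 0.545 in the wt middle, 1.45 and 1.70 in the ho middle, 0.730 and 10.8 in the wt base, and 0.103 and 0.0927 in the ho base. The 4 apical libraries were therefore close together and above every middle library, and the ho base was the lowest group. *Tekt2* had 6.92 in wt base 2, 2.21 in wt base 1 and between 0.761 and 1.71 in the remaining libraries. *Tekt4* had 3.10 in wt base 2, and at most 0.150 elsewhere. *Tekt3* had 0.475 in wt base 2 against at most 0.0187. *Tekt5* did not follow, with 0.281 in wt base 2 and up to 0.375 elsewhere.

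The *Cfap* genes share a name and not a structure, and their levels were mixed. *Cfap126* (chr1:171113918-171126967, plus strand), known as Flattop, had 21.5 in wt base 2 and between 0.377 and 1.53 in the other 11 libraries. *Cfap43*, which holds an inner arm in place, had 8.85 against at most 0.465, and its partner *Cfap44* 3.62 against at most 0.804. *Cfap45* and *Cfap52*, proteins of the inside of the doublet, had 5.77 and 5.86 against at most 0.934 and 0.345. *Cfap65* had 6.72 against at most 0.0364, and *Cfap46* of the central pair 2.55 against at most 0.434. *Cfap221*, also of the central pair, had 0.685 in wt base 2 and was listed at 0 in the other 11 libraries. By contrast *Cfap20*, which seals the inner junction of the doublet in motile and primary cilia alike, had 21.5 in wt base 2 and between 17.5 and 29.2 elsewhere. *Cfap36* had 35.9 against 17.4 to 46.2, *Cfap97* 7.44 against 5.50 to 9.04, and *Cfap410*, a gene linked to primary cilia, 12.5 against 8.46 to 18.4. These last 4 genes were each exceeded by at least 1 other library.

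**Figure D3:**
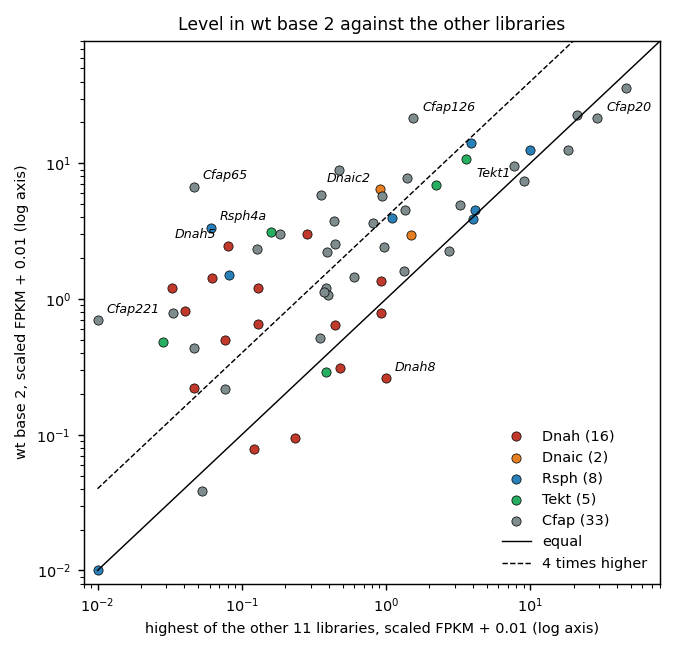
Each point is 1 of the 64 genes, with its highest level among the other 11 libraries on the x axis and its level in wt base 2 on the y axis (scaled FPKM + 0.01, both log axes), coloured by family. The solid line marks equal levels and the dashed line 4 times as much in wt base 2 on this scale; points of all 5 families lie above the dashed line, such as *Cfap126* (21.5 against 1.53) and *Cfap65* (6.72 against 0.0364), while *Cfap20* and *Dnah8* lie below the line of equal level.

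Promoter sequences are shown for 4 members that were highest in wt base 2, and they were picked after the matches were seen, because each holds the longer of the motifs named below close to its start, which most members do not. Each is the 250 bases before a RefSeq start of transcription in GRCm38.p6, written along the gene's own strand from 5′ to 3′ and ending at the base before the start. They are chr1:172520880-172521129 (plus strand) for *Cfap45*, chr16:44394549-44394798 (plus strand) for *Cfap44*, chr4:34730207-34730456 (minus strand) for *Cfap206*, an adaptor of the second radial spoke, and chr11:72361883-72362132 (minus strand) for 1 of the starts of *Tekt1*. Capitals mark matches, on either strand, to GTTGCCA or GTNNCCNNNGNNAC (GTNNCC and GNNAC with any 3 bases between them), which are a short and a long form of the X-box that Rfx factors bind and can overlap, or to TGTTTAC, a forkhead motif.
Cfap45: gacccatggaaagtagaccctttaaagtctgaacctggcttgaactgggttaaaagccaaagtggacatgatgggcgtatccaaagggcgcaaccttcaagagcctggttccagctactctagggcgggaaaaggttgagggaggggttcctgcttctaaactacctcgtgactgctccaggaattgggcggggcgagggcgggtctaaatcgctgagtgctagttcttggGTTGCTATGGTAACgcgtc
Cfap44: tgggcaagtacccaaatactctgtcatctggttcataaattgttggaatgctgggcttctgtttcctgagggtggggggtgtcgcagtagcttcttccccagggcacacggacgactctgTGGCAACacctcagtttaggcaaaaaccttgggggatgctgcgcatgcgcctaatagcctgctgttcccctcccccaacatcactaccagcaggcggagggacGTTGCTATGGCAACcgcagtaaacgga
Cfap206: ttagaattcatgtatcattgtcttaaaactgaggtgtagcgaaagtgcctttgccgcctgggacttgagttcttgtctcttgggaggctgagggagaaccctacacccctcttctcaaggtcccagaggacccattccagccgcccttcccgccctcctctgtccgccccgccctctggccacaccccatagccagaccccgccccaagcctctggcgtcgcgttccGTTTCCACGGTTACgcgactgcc
Tekt1: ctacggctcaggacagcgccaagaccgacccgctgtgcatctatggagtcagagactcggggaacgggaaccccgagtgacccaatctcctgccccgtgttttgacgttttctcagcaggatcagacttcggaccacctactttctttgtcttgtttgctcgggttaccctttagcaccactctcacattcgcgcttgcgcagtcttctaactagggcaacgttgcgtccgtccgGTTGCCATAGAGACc

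In *Cfap45* the match GTTGCTATGGTAAC began 19 bases before the start, in *Cfap44* the match GTTGCTATGGCAAC 27 bases, in *Cfap206* the match GTTTCCACGGTTAC 23 bases and in *Tekt1* the match GTTGCCATAGAGAC 15 bases before it. RefSeq promoters were found for 52 of the 64 genes, with 59 starts. GTTGCCA was present for 10 of the 52 genes (19.2%), against 4.19% of the 27025 genes with a promoter in that table. GTNNCC with GNNAC was also present for 10 (19.2%), against 4.39% of all genes. TGTTTAC was present for 4 (7.69%), against 3.54% of all genes. The matches were not held by the genes of wt base 2 alone, since the long form was present in 4 of 18 such genes and in 1 of 8 genes found in all libraries, and the short form in 2 of 18 and 3 of 8. These counts describe the letters in a window, and binding was not measured.

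Other genes of ciliated cells from lists compiled for this comparison were high in wt base 2 as well. *Foxj1*, the master regulator of motile cilia, had 14.6 in wt base 2, with between 0.230 and 6.99 in the other 11 libraries. Of 47 further axonemal genes measured (dynein assembly factors, docking and central pair proteins), 21 reached 1 FPKM in wt base 2 alone and 37 were highest there, and their sum was 197.0 against 54.3 to 73.1. Of 23 genes of the multiciliated programme, 8 were at 1 FPKM in wt base 2 alone and 18 highest there, with a sum of 216.7 against 19.6 to 105.5. *Sntn*, which encodes the cilium tip protein sentan, had 5.88 in wt base 2 and was listed at 0 in the other 11. *Tppp3* was the largest part of that sum and was higher in another library, at 93.7 against 65.2. *Mcidas* and *Gmnc*, which start the programme, were at 0.611 and 0.0997 in wt base 2.

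Markers of other tissues moved with them in part. In a list of 22 genes of airway-type secretory epithelium, the sum was 3631 in wt base 2 against 25.6 to 227.6, and 12 of the 22 were highest there. Most of that sum was *Bpifa1*, a secreted defence protein of the upper airway, with 3416 in wt base 2, 7.82 in wt base 1 and at most 9.37 elsewhere. Without *Bpifa1* the rest of the list was not higher in wt base 2 than in ho middle 1, where the whole list summed to 227.6. *Cyp2f2* had 105.1 against at most 8.61 and *Muc16* 1.18 with 0 in the other 11, whereas the defining secretory genes *Scgb1a1*, *Bpifb1* and *Muc5ac* stood at 0, 0.0864 and 0.0344. Of 12 basal epithelial genes, 6 were highest in wt base 2 (sum 12.4 against 1.71 to 10.96), with *Krt5* at 0.921 and *Trp63* at 0.451. Choroid plexus, another tissue with motile cilia, did not move in this way: its 10 markers summed to 55.5 in wt base 2 and to 229.7 in wt base 1, and *Ttr* had 21.3 and 97.0. Hair cell markers summed to 387.6 in wt base 2, within the range of 166.9 to 877.7 elsewhere, and 32 genes of primary cilia to 377.7, within 299.2 to 438.0, with none at 1 FPKM in wt base 2 alone. Osteoblast and erythroid markers were also at their highest in wt base 2, with sums of 3033 against 64.1 to 2601 and of 4994 against 232.2 to 3539. Of the 242 genes at 1 FPKM in wt base 2 alone, 24 were members, 32 were in these lists and 186 in neither. Where in the dissected piece these transcripts came from was not tested.

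Wild-type and homozygous libraries were then compared within each turn. Only 21 of the 64 genes passed the filter for testing, 13 *Cfap*, 5 *Rsph*, 2 *Tekt* and 1 *Dnaic* gene, among 16215 genes tested with limma on log2(scaled FPKM + 1), with calls where the adjusted p was under 0.01 and the fold change above 2. Since a gene could pass through wt base 2 and a single further library, the 21 are not a sample of the 64. In the apex 0 of 21 were called, against 0.179% of all genes tested, and in the middle turn 0 of 21, against 0.179%. In the base 0 of 21 were called, against 4.29%, and for the mean of the turns 0 of 21, against 0.376%. At an unadjusted p under 0.05 in limma, 2 members were higher and 0 lower in the ho apex, 1 higher and 4 lower in the ho middle, and 0 higher and 8 lower in the ho base. The same threshold was passed by 16.4% of all genes in the apex (9.03% lower in ho), 25.4% in the middle (12.5% lower) and 32.4% in the base (15.96% lower). Without wt base 2 the count in the base was 4 higher and 6 lower, beside 36.5% of all genes (17.5% lower), so the members were then split over both directions.

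The median change of the 21 genes was −0.02 in the apex (log2, ho minus wt; −0.03 over all genes), 0.11 in the middle (0.04 over all genes) and −0.66 in the base (−0.02 over all genes). In the base 17 of the 21 changes were below 0, against 51.7% of all genes. Without wt base 2 the median in the base was −0.13 (0.02 over all genes) and 12 of 21 were below 0. In the apex both ho libraries were above both wt libraries for 7 of 21 members (26.9% of all genes) and below for 7 (32.1% of all genes), and in the middle turn above for 7 (31.3%) and below for 6 (28.2%). In the base both ho libraries were above for 1 of 21 (26.2%) and below for 10 (27.8%). The apex and middle turns were thus near the share of all genes. In the base the count below was above that share. Such a count needs both wt libraries, wt base 1 as well as wt base 2, to lie above both ho libraries. The filter counted wt base 2, where most members were highest, so for many of them part of this condition was met in advance. *Cfap206*, for which both ho libraries were below, passed the filter only through wt base 2 and wt apex 1. The count is therefore a description.

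**Figure D4:**
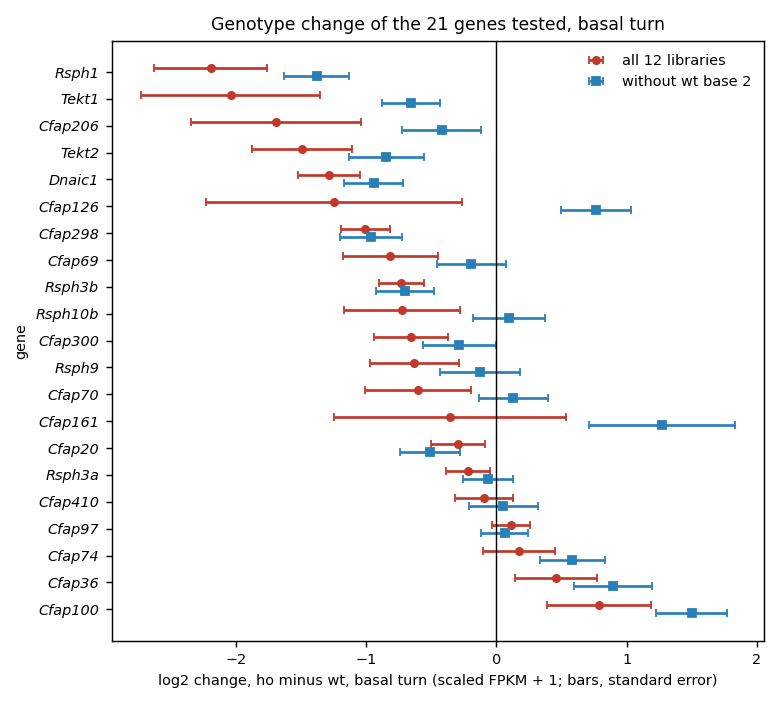
For each of the 21 genes tested, the log2 change (ho minus wt) in the basal turn is plotted with its standard error, in red from all 12 libraries and in blue without wt base 2. The red points have a median of −0.66 and the blue points one of −0.13, *Cfap126* moves from −1.25 to 0.76, and *Cfap298* and *Rsph3b* stay near −1.01 and −0.73.

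For 3 genes the basal change was of like size without wt base 2, where wt base 1 is left as the single wild-type library of that turn and is assumed to vary as the other groups do. *Cfap298* (chr16:90925809-90935114, minus strand), a cytoplasmic factor needed for dynein arms, had 21.2 and 22.7 in the wt base and 10.04 and 10.8 in the ho base, with repeats close and genotypes apart. Its log2 change was −1.01 (SE 0.19, limma adjusted p = 0.0104), just outside the threshold, and −0.96 (adjusted p = 0.0217) without wt base 2. *Rsph3b* had 3.69 and 3.87 in the wt base and 1.72 and 2.05 in the ho base, a change of −0.73 (SE 0.18, limma adjusted p = 0.0232), and −0.70 (adjusted p = 0.0524) without wt base 2. *Dnaic1* had a log2 change of −1.28 (SE 0.24, limma adjusted p = 0.0102) in the base and of −0.67 (SE 0.14, limma adjusted p = 0.0454) over the mean of the turns. Without wt base 2 its change was −0.94 (adjusted p = 0.0188 in limma) in the base. *Dnaic1* shares 15 bases at its end with *Enho* on the opposite strand, which had 106.8 and 69.1 in the wt base and 29.0 and 36.9 in the ho base.

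For others the size of the change moved more when wt base 2 was left out. *Rsph1* had 3.87 and 14.1 in the wt base and 0.951 and 0.793 in the ho base, both below both wt libraries, and its change of −2.19 (SE 0.43, limma adjusted p = 0.0123) became −1.38 (SE 0.25, limma adjusted p = 0.00614) without wt base 2, so that it then passed the threshold although the change was smaller. *Tekt2* had a log2 change of −1.50 (SE 0.38, limma adjusted p = 0.0293), and of −0.84 (adjusted p = 0.0702) without it. For *Tekt1* it was −2.04 (SE 0.68, limma adjusted p = 0.0708), and −0.66 (adjusted p = 0.0702) without it. *Cfap206*, at 7.80 in wt base 2 and 0.506 in wt base 1, had a log2 change of −1.70 (SE 0.65, limma adjusted p = 0.108), and of −0.42 (adjusted p = 0.362) without wt base 2. For *Cfap126* it was −1.25 (SE 0.98, limma adjusted p = 0.425), and 0.76, in the other direction, without wt base 2. Without it *Cfap100* was called higher in the ho base, by 1.5 (SE 0.27, limma adjusted p = 0.00608), from 0.213 in wt base 1 alone, and 2 of 21 members were then called against 11.3% of all genes.

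In the apex and middle turns no member was called, and 3 genes are given here. There wt base 2 enters through the shared estimate of the spread, the filter and the scaling. *Cfap410* had a log2 change of 0.83 in the apex (SE 0.22, limma adjusted p = 0.128), with 8.81 as the mean of the wt libraries and 16.5 as that of the ho libraries. *Cfap36* had 38.1 and 44.3 in the wt middle and 20.6 and 19.2 in the ho middle, a change of −1.01 (SE 0.31, limma adjusted p = 0.0935). *Cfap161* had 7.69 and 4.36 in the wt middle and 0.755 and 0.234 in the ho middle, a change of −2.21 (SE 0.89, limma adjusted p = 0.165). In the apex *Cfap161* had 3.12 and 5.08 in wt and 0.196 and 0.963 in ho, so that the genotypes did not overlap in either turn. In the base it had 0.107 and 9.58 in wt and 3.03 and 0.767 in ho, and there the wt repeats enclosed both ho values.

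The genotype change itself was compared between turns. Between the middle and the apex 0 of 21 members differed, against 0% of all genes, and between the base and the apex 0 of 21, against 0.796%. Between the base and the middle 1 of 21 differed, against 8.91% of all genes. That gene was *Cfap298*, whose change was lower in the base than in the middle by 1.37 on the log2 scale (−1.37, SE 0.27, limma adjusted p = 0.00829). *Cfap298* had 10.5 and 10.04 in the wt apex, 12.4 and 17.7 in the ho apex, 11 and 13.6 in the wt middle and 14.5 and 17.7 in the ho middle. The ho libraries were thus the higher ones in the apex and middle and the lower ones in the base, where wt was at its highest. The call was narrow, since the adjusted p was 0.0147 without wt base 2 and reached 0.0323 without wt middle 1. The nerve marker sums given above also change order between the middle and the base, and their part in this difference was not tested. Without wt base 2, the 4 members called between the base and the middle were *Rsph1* (−2.01, limma adjusted p = 0.00327), *Tekt1* (−1.47, adjusted p = 0.00773), *Cfap36* (1.91, adjusted p = 0.00829) and *Cfap161* (3.48, adjusted p = 0.00932), against 14.0% of all genes. In the fit of all libraries these were −2.82, −2.85, 1.47 and 1.86, with limma adjusted p of 0.0131, 0.0638, 0.0441 and 0.311.

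**Figure D5:**
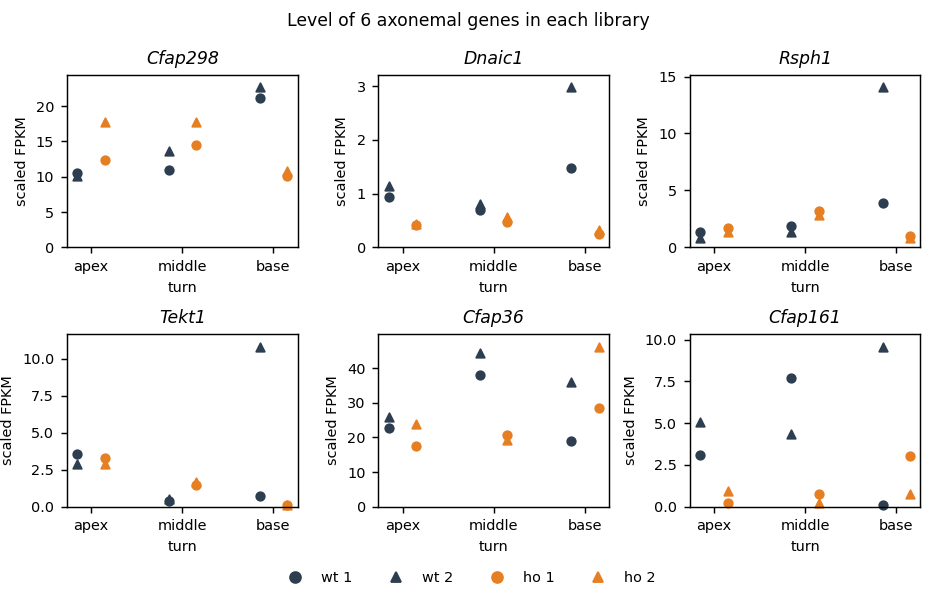
Scaled FPKM of 6 axonemal genes in each library, by turn, with wt in dark blue and ho in orange and a circle for library 1 and a triangle for library 2. In *Dnaic1* all ho points lie below all wt points, in *Cfap298* the order of the genotypes differs between the base and the other turns, and in *Rsph1*, *Tekt1* and *Cfap161* the single triangle of wt base 2 is the highest point.

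Along the cochlea of 1 genotype, 0 of 21 members differed between any pair of turns in limma with all libraries. The share of all genes was 0.0863% in wt between middle and apex, 0.0863% between base and apex and 0% between base and middle. In ho it was 0% between middle and apex, 4.06% between base and apex and 4.66% between base and middle. At an unadjusted p under 0.05, 6 members were higher and 0 lower in the wt base than in the wt middle, beside 15.2% of all genes (9.34% lower in the base), and 2 were higher and 2 lower in the ho base than in the ho middle, beside 34.6% of all genes (17.7% lower). With wt base 2 left out the wt count was 3 higher and 2 lower, beside 22.2% of all genes, and the ho count 3 and 3, beside 37.7%. *Tekt1* had a log2 difference along the ho cochlea of −1.89 between base and apex (SE 0.68, limma adjusted p = 0.0895) and of −1.23 between base and middle (SE 0.68, limma adjusted p = 0.235), and *Rsph1* one of −1.11 between base and middle (SE 0.43, limma adjusted p = 0.109). Without wt base 2, which is no part of these contrasts but widens the shared spread of these genes, these differences were called in limma, with adjusted p of 0.00179, 0.00326 and 0.00705. The shares of all genes called were then 9.38% between ho base and apex and 9.53% between ho base and middle.

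The correlation among the genes was far lower without wt base 2. Over the 210 pairs of the 21 tested members, the median correlation of log2 levels across the 12 libraries was 0.399 and 175 pairs were above 0, and without wt base 2 the median was 0.0267 and 113 pairs were above 0. Most like the mean of the other members were *Cfap206* (Pearson's r = 0.956, Spearman's rho = 0.776, and r = 0.526 without the 2 libraries farthest from the median), *Rsph10b* (r = 0.949, rho = 0.559, and 0.603) and *Cfap126* (r = 0.907, rho = 0.161, and −0.26). Least like it were *Cfap20* (r = −0.05, rho = 0.378, and r = 0.218 without the 2 farthest libraries), *Cfap97* (r = −0.02, rho = −0.40, and −0.37) and *Cfap410* (r = 0.13, rho = −0.12, and 0.03), all of them genes found in every library. With wt base 2 left out their r was 0.453, −0.47 and 0.01, so the low place of *Cfap20* rested on that library. Outside the families, genes among the 10 with the most similar pattern of 14614 were *Trpm1*, *Mlf1*, *Dynlrb2*, *Ccer2*, *Bpifa1*, *Nme5*, *Lrrc51*, *Wdr78* and *Capsl*, with r from 0.913 to 0.941. Without the 2 farthest libraries r was 0.710 for *Lrrc51* and 0.507 for *Dynlrb2* and 0.202 for *Trpm1*, but lay near 0 for *Nme5* (−0.00) and *Ccer2* (−0.06) and at −0.43 for *Capsl*, so for these the likeness rested on those libraries. The filter that chose the 21 genes counted wt base 2, and the values without that library kept the same genes. *Cfap206* and *Rsph10b* reached 1 FPKM in only 2 libraries, wt base 2 among them, so their likeness was partly set by the filter. The libraries share tissue composition, and the correlations are given as a description.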

How the data were processed

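RNA-seq was done on the apical, middle and basal turns of wild-type and 35delG homozygous cochleae. Per the submitters' processing notes, the tools were fastp 0.20.0, STAR 2.7.3a with mm10, featureCounts 2.0.0, StringTie 2.0 and DESeq2 1.30.0; uniquely mapped reads were used. The authors deposited FPKM values of StringTie in 1 table of 37432 genes, which is all that was analysed here. No steps of whole reads were found in the values, so depth is unknown and only the spread between the 2 libraries of a group gives an error. The sum of a library's FPKM was between 316425 and 408162 and is no depth.

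Each library was scaled by the median of its ratios to the mean profile over 11552 genes. The 16215 genes with at least 1 deposited FPKM in at least 2 libraries were tested with limma 3.58.1 in R 4.3.3 on log2(scaled FPKM + 1), which understates changes of low genes. The fit held a mean per group, 6 in all, with a trend, two-sided tests and Benjamini-Hochberg adjustment over all genes tested. A call took an adjusted p below 0.01 with a fold change above 2, as in the study. The fit was tested on simulated data. Groups came from the sample titles. Alternatives were a pseudocount of 0.1, no filter, a filter of 5 FPKM, FPKM as deposited, quantile normalization, only the groups compared, no trend, a replicate block, an adjusted p under 0.05 and each library left out.

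The genes, the lists of markers and the tests were chosen with earlier results of these data known. Genes named were the 4 of highest mean in each family, all tektins, called genes, the 3 most and least like the others, the 10 most similar outside the families, *Foxj1* and the 2 of highest mean in marker lists. Some genes of the rule are not reported here, and *Dnah1*, *Dnah2*, *Dnah2os*, *Dnah5*, *Dnah7a*, *Dnah7c*, *Dnah9*, *Dnah10*, *Dnah12*, *Dnah17*, *Rsph4a*, *Rsph6a*, *Rsph14*, *Cfap43*, *Cfap44*, *Cfap45*, *Cfap46*, *Cfap52*, *Cfap65*, *Cfap100*, *Cfap161*, *Cfap221*, *Cfap300*, *Enho*, *Sntn*, *Mcidas*, *Gmnc* and the secretory and basal markers other than *Bpifa1* were named after their values were seen. Promoters came from RefSeq (GRCm38.p6). Python 3.11.15 and matplotlib 3.10.9 were used.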

Additional observations from a re-analysis of the deposited data

Results flagged for a closer look

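The genotype change of *Cfap298* differed between turns by a test of the difference itself. It was lower in the base than in the middle turn by 1.37 on the log2 scale (−1.37, SE 0.27, limma adjusted p = 0.00829), with both ho libraries below both wt libraries in the base and above them in the middle. That call was 1 of 21 members, against 8.91% of all genes tested. No member was called for this difference with no filter, with no trend or with only the groups compared. No group had the 4 libraries needed to test for a library far from its repeats.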

How the results depend on the processing

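Only 21 of the 64 genes could be tested, a group has 2 libraries, and depth is unknown. Shares in parentheses are of all genes tested under the same setting. In the base 0 members were called (4.29%). The number was 1 with a pseudocount of 0.1 (3.62%), 1 of the 7 members left with a filter of 5 FPKM (5.34%), 3 with quantile normalization (5.06%), 1 with no trend (3.92%), 4 at an adjusted p under 0.05 (12.1%), and between 0 and 4 with a library left out. It was 4 without wt base 1 (0.611%), where wt base 2 stands for the group, and 2 without wt base 2 (11.3%). For base against middle 1 was called (8.91%). It was 2 with a pseudocount of 0.1 (7.33%), 0 with no filter (0.478%), 0 with only the groups compared (0%), 0 with no trend (8.39%), 3 at an adjusted p under 0.05 (19.8%), and between 0 and 5 with a library left out, with 5 without wt base 1 (6.27%), 4 without wt base 2 (14.0%), 1 without either ho apex library and 0 without any other. For base against apex the number of 0 became 2 at an adjusted p under 0.05 (11.2%) and ranged from 0 to 3 with a library left out, with 3 without wt base 1 (0.333%). Between wt base and apex it became 1 at an adjusted p under 0.05 (0.981%) and ranged from 0 to 2, with 2 without wt base 1 (0.173%), and between wt base and middle it ranged from 0 to 3, with 3 without wt base 1 (0.0863%). Between ho base and apex it ranged from 0 to 1, with 1 without wt base 1 (9.35%) or wt base 2 (9.38%), and between ho base and middle from 0 to 2, with 2 without wt base 1 (9.49%) or wt base 2 (9.53%). The basal change of *Cfap126* was −3.27 without wt base 1 and 0.76, opposite in direction, without wt base 2. In the FPKM as deposited the summed level was 114.0 in wt apex 2, 111.6 in wt middle 1 and 120.4 in wt middle 2, against 110.7, 119.8 and 131.3 after scaling. These scaled sums are the deposited ones divided by the factors of the 3 libraries, 1.03, 0.932 and 0.917. The cause of the other shifts was not tested.

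The repeat numbers showed no common pairing: over 15 pairs of groups the correlation of the differences between repeats ran from −0.43 to 0.45, and 4 were above 0.1. Whether libraries of different turns came from the same animals is not given, and these correlations cannot decide it. The main fit took the libraries as independent. With the replicate block, 0 members were called in the base (1.09%) and 1 between base and middle (5.96%), and no other count of members called differed from the fit without the block.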
